A study of Bos taurus with 54 samples.

Results

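The genes described here were the translation initiation and elongation factors of cattle, measured in blood of Holstein male calves before and after heat stress. They were all genes in the count files whose symbol begins with EIF1 to EIF6 or with EEF1 or EEF2, which gave 65 of the 32637 genes listed. Each of the 65 was annotated as protein coding in ARS-UCD2.0, and together they lay on 27 chromosomes. The symbols place them in 10 role groups, from the eIF1 group to the enzymes that modify elongation factors. The study used 15 calves. Blood was drawn in the morning under thermoneutral conditions (control) and in the evening after 12 h of heat exposure (heat stress), not from every calf at both times; red cells were lysed, and the remaining cells were used for RNA. No drug, transgene or age is named in the labels. The controls are the same calves earlier in the trial, so heat stress and time of day cannot be told apart. Libraries were made from these RNA samples with a pair of kits that read the 3′ end of polyadenylated transcripts, Lexogen QuantSeq (Lexogen) and SMART-Seq v4 3′ DE of Takara (Takara). Each kit had 13 control and 13 heat stress libraries, and 12 animals had both times in each kit.

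Translation of most messages begins when the cap-binding complex eIF4F (the cap-binding protein eIF4E, the scaffold eIF4G and the helicase eIF4A) recruits a small ribosomal subunit that carries eIF3, eIF1, eIF1A, eIF5 and the initiator tRNA bound to eIF2 and GTP. Stress kinases that phosphorylate eIF2 alpha block its recharging by eIF2B, which lowers initiation in general while messages such as ATF4 are translated better; this is the integrated stress response. Elongation then runs on eEF1A, which delivers aminoacyl-tRNA, its exchange factor eEF1B, and eEF2, which moves the ribosome and is inhibited by the kinase eEF2K. Many of these messages, those of the elongation factors above all, carry a terminal oligopyrimidine tract, through which mTOR controls their own translation. Transcript levels, which are what was measured here, are not protein levels or phosphorylation states.

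Counts on genes ranged from 5140595 to 20699030 per Takara library and from 4516761 to 58521751 per Lexogen library, and the translation factors made up 0.388% to 0.967% of them. The deepest Lexogen library was the heat stress library of animal 15. Animal 20 had 1 library per kit, whose time the sources give differently, and it was left out of every value below unless named. T cell, B cell, neutrophil and monocyte markers were counted in both kits. Of 8 erythroid markers HBA1 was at 0 in every library. The sum of the erythroid markers was still 470 to 3543 CPM (counts scaled to library size by TMM) in Takara control libraries. In Lexogen control libraries it was 125 to 632.5 CPM. The sum of 12 neutrophil markers was 4913 to 21551 CPM in Takara control libraries and 4747 to 112365 in heat stress libraries. Of the 11 tested neutrophil markers 9 were higher. Of 12 T cell markers 5 were lower in Takara, with a sum of 1173 to 2142 CPM in control and 744 to 1670 in heat stress. In Lexogen, 6 of 10 tested neutrophil markers were higher and the T cell sum was 314.1 to 549 CPM in control and 198 to 694 in heat stress. Fewer cells of a type and less RNA per cell cannot be told apart in these bulk libraries.

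After heat stress, transcripts of an eIF4F variant set, EIF4E3, EIF4G3 and EIF4A2, rose in Takara libraries together with EIF4G2, EIF1, EIF5 and the eIF2 kinase gene EIF2AK3. Subunits of eEF1B (EEF1B2, EEF1D and EEF1G), 3 subunits of eIF3 (EIF3F, EIF3K and EIF3M), EIF1AX and EIF4B fell, by at most 0.48 on the log2 scale with TMM scaling. A gene was called at an adjusted p under 0.05 in the quasi-likelihood test of edgeR, adjusted by the Benjamini-Hochberg method over every gene tested. Of the 65 translation factors 60 were tested in Takara, of which 7 (11.7%) were higher and 8 (13.3%) lower, beside 18.4% of all tested genes higher and 10.5% lower. In Lexogen 59 were tested and 3 (5.08%) were higher, beside 5.09% of all genes; 0 were lower, beside 0.459% of all genes, with 6 lower at an unadjusted p under 0.05 and 0 lower by DESeq2. The shares of called translation factors were thus below the background for rises in Takara, near it for falls, and at the background in Lexogen. The median log2 fold change was -0.15 for translation factors and -0.05 for all tested genes (Takara), and in Lexogen it was -0.16 beside -0.08. Of the 60 in Takara, 12 had a positive fold change and 48 a negative one, against 45.02% positive among all tested genes.

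These calls depended on choices of the analysis, among them the time given to animal 20 and blocking by animal. Scaling and the split by runs of sample numbers also changed some calls, as given below. With animal 20 counted as control, 0 translation factors were called in Takara by edgeR, with 18 at an unadjusted p under 0.05, and 0 in Lexogen, with 7. This loss was not limited to translation factors. In Takara 25 genes named in this report lost their call, genes outside the translation factors among them. With animal 20 counted as heat stress, 7 translation factors were higher and 11 lower in Takara and 3 were higher in Lexogen. Blocking by animal, which keeps only animals with both times, left 7 higher and 6 lower in Takara. None of the Lexogen tests passed with the block (0 called), with 10 at an unadjusted p under 0.05.

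**Figure D1:**
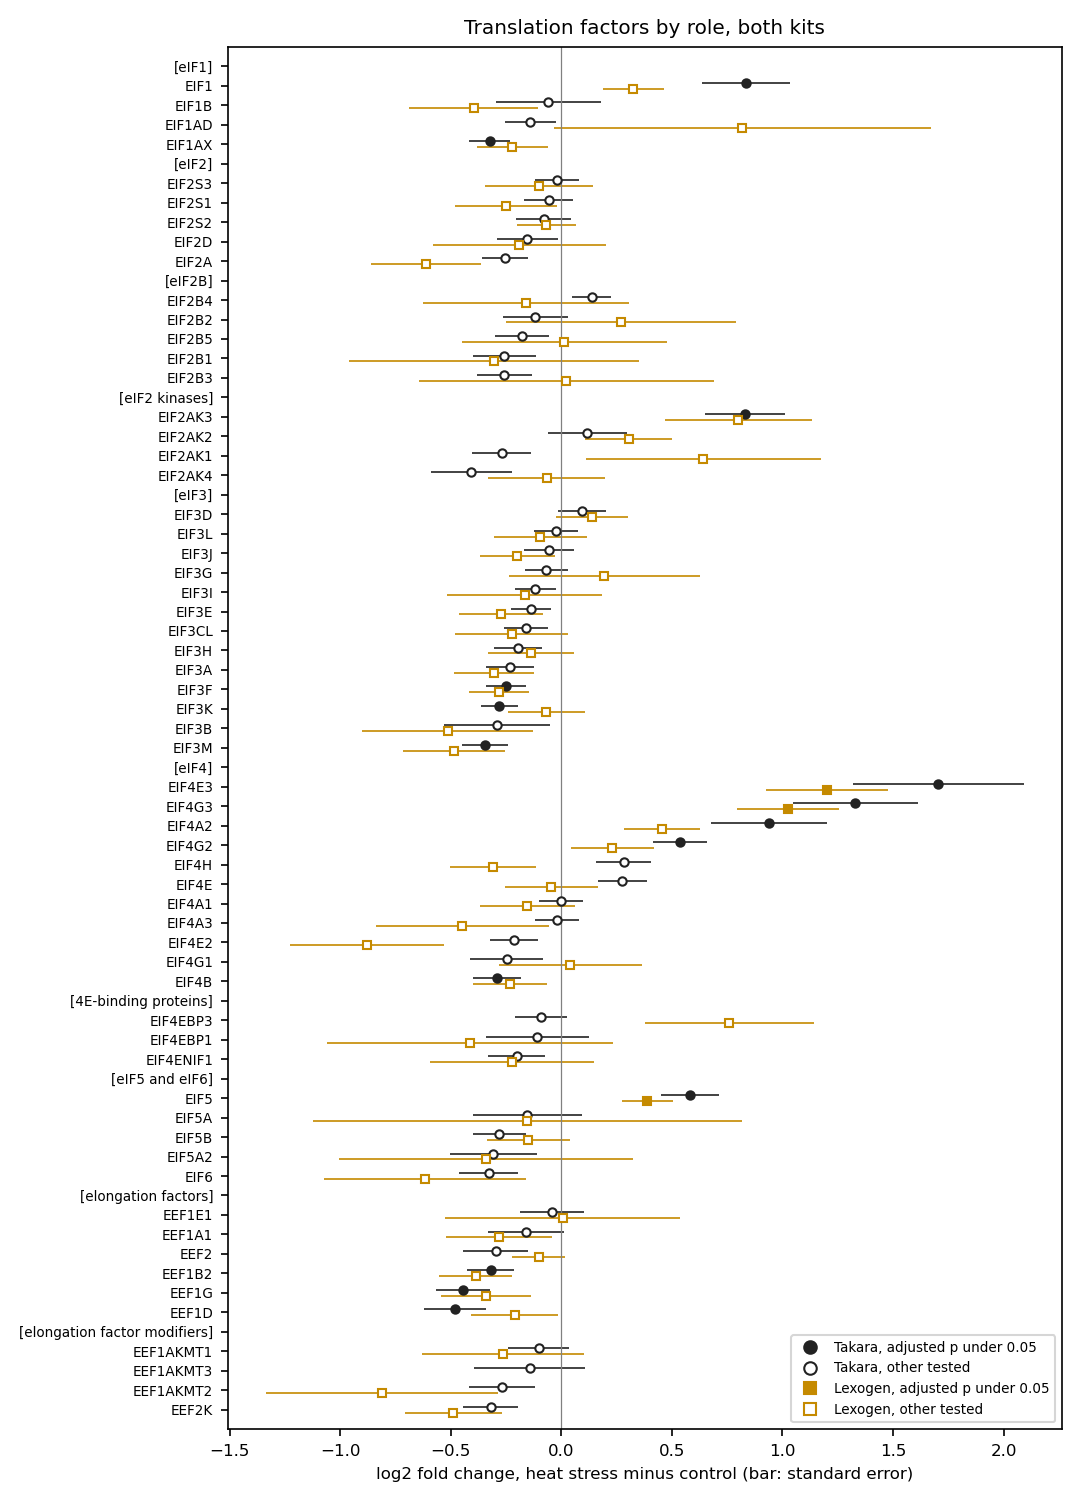
Log2 fold change of heat stress against control (x axis, bars are 1 standard error) for every translation factor tested in Takara, grouped by role, with Takara as circles and Lexogen as squares. Filled symbols have an adjusted p under 0.05. EIF4E3, EIF4G3 and EIF5 are filled in both kits, most eIF3 and elongation factor genes sit slightly below 0, and Lexogen bars are longer.

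Among the translation factors tested in Takara, the cap-binding complex held the 3 largest rises. EIF4E3 encodes a cap-binding protein related to eIF4E (chromosome 22, 29921561 to 30036577, ARS-UCD2.0). In Takara it had a lowest, median and highest level of 11.9, 23.4 and 46.9 CPM in control and of 11.8, 65.3 and 196 CPM in heat stress. In Lexogen the levels were 15.1, 23.4 and 50.6 CPM in control and 7.94, 63.4 and 114.7 CPM in heat stress. In both kits 8 of 13 heat stress libraries lay above every control library, and 1 lay below the lowest, so the groups overlapped. The log2 fold change was 1.71 ± 0.39 (SE, adjusted p = 0.00209) in Takara, higher in 11 of 12 animals, and 1.20 ± 0.28 (adjusted p = 0.00698) in Lexogen, higher in 10 of 12, by edgeR's quasi-likelihood test; with the animal as a block the adjusted p was 0.0188 in Takara and 0.136 in Lexogen.

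EIF4G3 encodes a scaffold paralogous to eIF4G1 (chromosome 2, 131483216 to 131837789). Takara levels were 52.2, 79.4 and 99.7 CPM in control and 60.6, 192 and 412 CPM in heat stress. Lexogen levels were 147, 236 and 317 CPM in control and 200, 291 and 1018 CPM in heat stress. In Takara 8 heat stress libraries and in Lexogen 6 were above all controls, and the remainder lay within the control range. The log2 fold change was 1.33 ± 0.28 (adjusted p = 0.00135, higher in 9 of 12 animals) in Takara and 1.03 ± 0.23 (adjusted p = 0.00543, 9 of 12) in Lexogen, and the Lexogen call was lost with the animal as a block (adjusted p = 0.122).

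EIF4A2 and EIF4G2 were called in Takara and were named here after their values were seen. EIF4A2, a paralog of the helicase EIF4A1, had a log2 fold change of 0.94 ± 0.26 in Takara (adjusted p = 0.00893) and of 0.45 ± 0.17 in Lexogen (adjusted p = 0.131). Takara levels of EIF4A2 were 17.3, 29.4 and 54.1 CPM in control and 26.5, 37.6 and 150 CPM in heat stress. Only 4 of 13 heat stress libraries lay above every control. The libraries of animals 7 and 18 reached 150 and 139 CPM, with the next at 66.5. Its Lexogen value was higher in 11 of 12 animals and passed the threshold without the heat stress library of animal 15 (log2 fold change 0.51, adjusted p = 0.042). EIF4G2, an eIF4G relative without the eIF4E-binding part that serves cap-independent initiation, changed by 0.54 ± 0.12 (adjusted p = 0.00194) in Takara and 0.23 ± 0.19 (adjusted p = 0.599) in Lexogen.

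The canonical subunits did not pass the test. EIF4E, the main cap-binding protein, had 36.8, 53.6 and 60.2 CPM in control and 47.004, 58.6 and 90.1 CPM in heat stress in Takara, with a log2 fold change of 0.28 ± 0.11 (adjusted p = 0.0598), and it passed with median-of-ratios size factors (adjusted p = 0.0427). Its Lexogen value was -0.05 ± 0.21. EIF4G1, the main scaffold, had 16.6, 19.8 and 27.4 CPM in control and 6.46, 16.3 and 29.6 CPM in heat stress, with 8 heat stress libraries below every control and 2 above every control, and a log2 fold change of -0.25 ± 0.16 (adjusted p = 0.26). EIF4A1 had a log2 fold change of 0.00 ± 0.10 in Takara. EIF4B, a helper of the helicase, fell by 0.29 on the log2 scale in Takara (adjusted p = 0.0434). The call was lost with median-of-ratios size factors (adjusted p = 0.058) and with the animal as a block (adjusted p = 0.0545). It was also lost in the animals with both times without the block (adjusted p = 0.0653). Of the 11 eIF4 genes tested in Takara, 4 rose and 1 fell, beside 18.4% of all tested genes higher and 10.5% lower. The median log2 fold change of the eIF4 genes was 0.28.

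Within a library, the ratio of paralogs does not depend on library scaling, and it is given as a description without a test. The log2 ratio of EIF4G3 to EIF4G1 counts had a median of 1.97 in control and 3.75 in heat stress in Takara, and 9 of 13 heat stress libraries were above the highest control ratio of 2.27. In Lexogen the medians were 2.17 and 3.79, with 3 heat stress libraries above the highest control. The log2 ratio of EIF4E3 to EIF4E went from -1.01 to 0.46 in Takara, with 8 libraries above all controls, and from -0.85 to 0.29 in Lexogen, with 0 above. The EIF4A2 to EIF4A1 ratio moved less, from -1.16 to -0.92 in Takara and from 1.01 to 1.38 in Lexogen, and the ranges overlapped broadly.

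**Figure D2:**
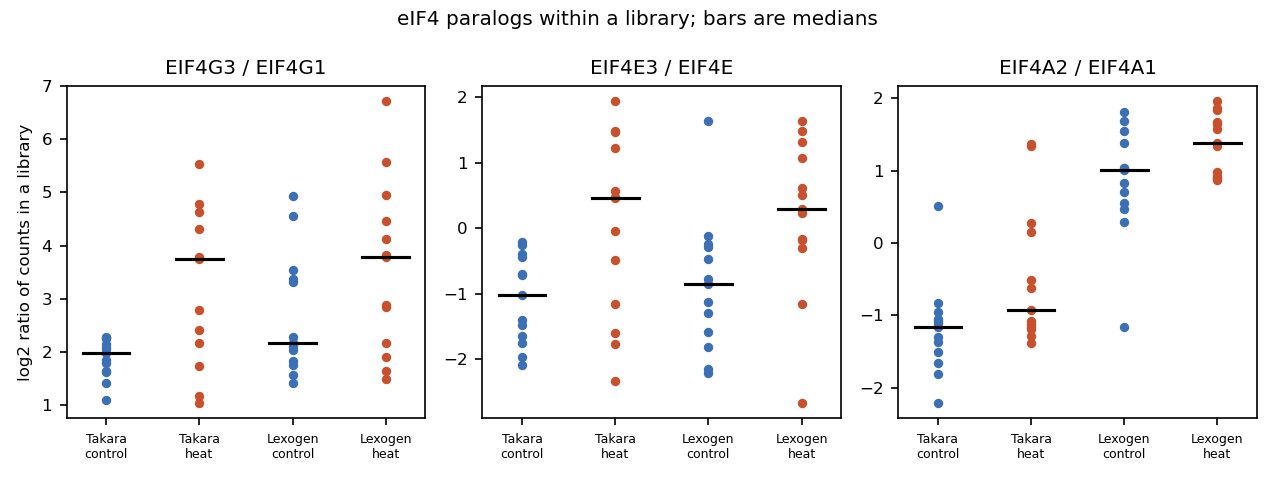
Log2 ratio of the counts of 2 paralogs within each library (y axis) by kit and time (x axis), with 1 point per library and a bar at the median. For EIF4G3 over EIF4G1 in Takara, 9 of 13 heat stress points are above the highest control point, while EIF4A2 over EIF4A1 overlaps between times.

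The eIF2 subunits showed no called change, while 1 of the eIF2 kinase genes rose. EIF2S1, the alpha subunit that the kinases phosphorylate, had 48.1, 63.1 and 82.8 CPM in control and 44.8, 62.1 and 89.7 CPM in heat stress in Takara, with a log2 fold change of -0.06 ± 0.11 (adjusted p = 0.729) and of -0.25 ± 0.23 (adjusted p = 0.656) in Lexogen. Over the 5 tested genes of the group the Takara log2 fold changes ran from -0.25 (EIF2A, an initiator tRNA binding factor outside the eIF2 complex, adjusted p = 0.065) to -0.02 (EIF2S3, the gamma subunit on the X chromosome), with 0 called by edgeR or DESeq2 and 1 at an unadjusted p under 0.05. The 5 genes of eIF2B, the exchange factor that recharges eIF2, were not called either. Their log2 fold changes lay between -0.26 (EIF2B3) and 0.14 (EIF2B4), and EIF2B4 turned to -0.10 with total counts as library size.

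EIF2AK3 encodes PERK, the eIF2 kinase of the endoplasmic reticulum (chromosome 11, 47433953 to 47515741). In Takara it had 14.8, 20.03 and 29.1 CPM in control and 16.7, 32.6 and 88.1 CPM in heat stress. Of 13 heat stress libraries 7 lay above every control, and 11 of 12 animals were higher. The log2 fold change was 0.83 ± 0.18 (adjusted p = 0.00159) in Takara. In Lexogen the levels were 18.4, 28.6 and 44.1 CPM in control and 17.6, 34.3 and 280.9 CPM in heat stress, with a log2 fold change of 0.80 ± 0.33 (adjusted p = 0.184). Of the Lexogen heat stress libraries, 3 were above the highest control, and the library of animal 18 alone reached 280.9 CPM, with the next at 54.03. DESeq2 gave a log2 fold change of 0.17 in Lexogen, and edgeR gave 0.36 when blocked by animal.

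The other 3 kinases were not called. EIF2AK1, the heme-regulated kinase HRI, had a log2 fold change of -0.27 ± 0.13 (adjusted p = 0.123) in Takara and 0.64 ± 0.53 (adjusted p = 0.605) in Lexogen. EIF2AK2, the double-stranded RNA kinase PKR, had 56.6, 94.3 and 150 CPM in control and 57.5, 99.7 and 198 CPM in heat stress, with a log2 fold change of 0.12 ± 0.18 that became -0.13 with total counts as library size. EIF2AK4, the amino acid sensor GCN2, had -0.41 ± 0.18 (adjusted p = 0.0958) in Takara and -0.07 ± 0.27 in Lexogen.

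Of 20 genes of the integrated stress response listed beside the translation factors, 19 were tested in Takara. Of these, 6 were higher and 2 lower, beside 18.4% and 10.5% of all tested genes. For the genes of the integrated stress response the median log2 fold change was 0.14. ATF4, the transcription factor at its centre, had 194, 234 and 270 CPM in control and 195, 363 and 723 CPM in heat stress, and 10 of 13 heat stress libraries lay above every control. It rose by 0.88 ± 0.18 (adjusted p = 0.00113) in Takara and 0.70 ± 0.17 (adjusted p = 0.0103) in Lexogen. DDIT3, the transcription factor CHOP, rose by 1.08 ± 0.22 (adjusted p = 0.000929) in Takara, and had 0.41 ± 0.30 (adjusted p = 0.544) in Lexogen. PPP1R15A, the regulatory subunit GADD34 that directs dephosphorylation of eIF2 alpha, rose by 0.60 ± 0.19 (adjusted p = 0.0219) in Takara and was higher in 12 of 12 animals, but the call was lost with total counts as library size (adjusted p = 0.16).

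The largest rise on that list was that of DDIT4, an inhibitor of mTOR signalling, with a log2 fold change of 2.78 ± 0.46 (adjusted p = 0.000318) in Takara and 2.45 ± 0.47 (adjusted p = 0.0016) in Lexogen. ASNS, asparagine synthetase and a classical ATF4 target, fell by 0.80 on the log2 scale in Takara (SE 0.29, adjusted p = 0.0413) and was lower in 11 of 12 animals. ATF4 and DDIT4 were the 2 genes of this list called in Lexogen, and with the animal as a block neither was (adjusted p = 0.167 and 0.0674).

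The factors that act with the small subunit at the start codon moved in both directions. EIF1, which guards start codon choice (chromosome 19, 41907220 to 41909777), had 615, 814 and 1215 CPM in control and 669, 1122 and 3037 CPM in heat stress in Takara. 5 of 13 heat stress libraries lay above every control and the rest within the control range. The log2 fold change was 0.84 ± 0.20 (adjusted p = 0.00306), and 0.33 ± 0.14 (adjusted p = 0.2) in Lexogen. EIF1AX, the X-linked eIF1A, fell by 0.32 on the log2 scale in Takara (adjusted p = 0.0116), was lower in 11 of 12 animals, and had -0.22 ± 0.16 (adjusted p = 0.536) in Lexogen.

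EIF5, the GTPase activator that triggers hydrolysis by eIF2 at the start codon, was above the controls in more heat stress libraries of Takara than any other called member (chromosome 21, 67987919 to 67997279). Takara levels were 300.4, 393 and 444 CPM in control and 356, 519 and 1016 CPM in heat stress, and Lexogen levels were 311, 380.4 and 464 CPM in control and 384, 482 and 642 CPM in heat stress. Above every control library were 10 of 13 heat stress libraries in Takara and 7 of 13 in Lexogen, and none lay below the lowest control. The log2 fold change was 0.58 ± 0.13 (adjusted p = 0.002, higher in 10 of 12 animals) in Takara and 0.39 ± 0.12 (adjusted p = 0.0398, 11 of 12) in Lexogen. The Lexogen call was lost with total counts as library size (adjusted p = 0.11) and with the animal as a block (adjusted p = 0.234).

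EIF6, which keeps the large subunit apart from the small one, had 191, 267 and 300.4 CPM in control and 122, 183 and 297 CPM in heat stress in Takara, with a log2 fold change of -0.33 ± 0.13 (adjusted p = 0.0593). EIF5A and EIF5A2, the hypusine-bearing factors, were near 2 CPM in both groups, with 2.13 and 2.71 as the control medians in Takara. Genes such as EIF5A, EEF1A1 and EIF4A1 have near-identical processed copies in mammalian genomes, and reads that map to several places were not counted, so their levels are uncertain.

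**Figure D3:**
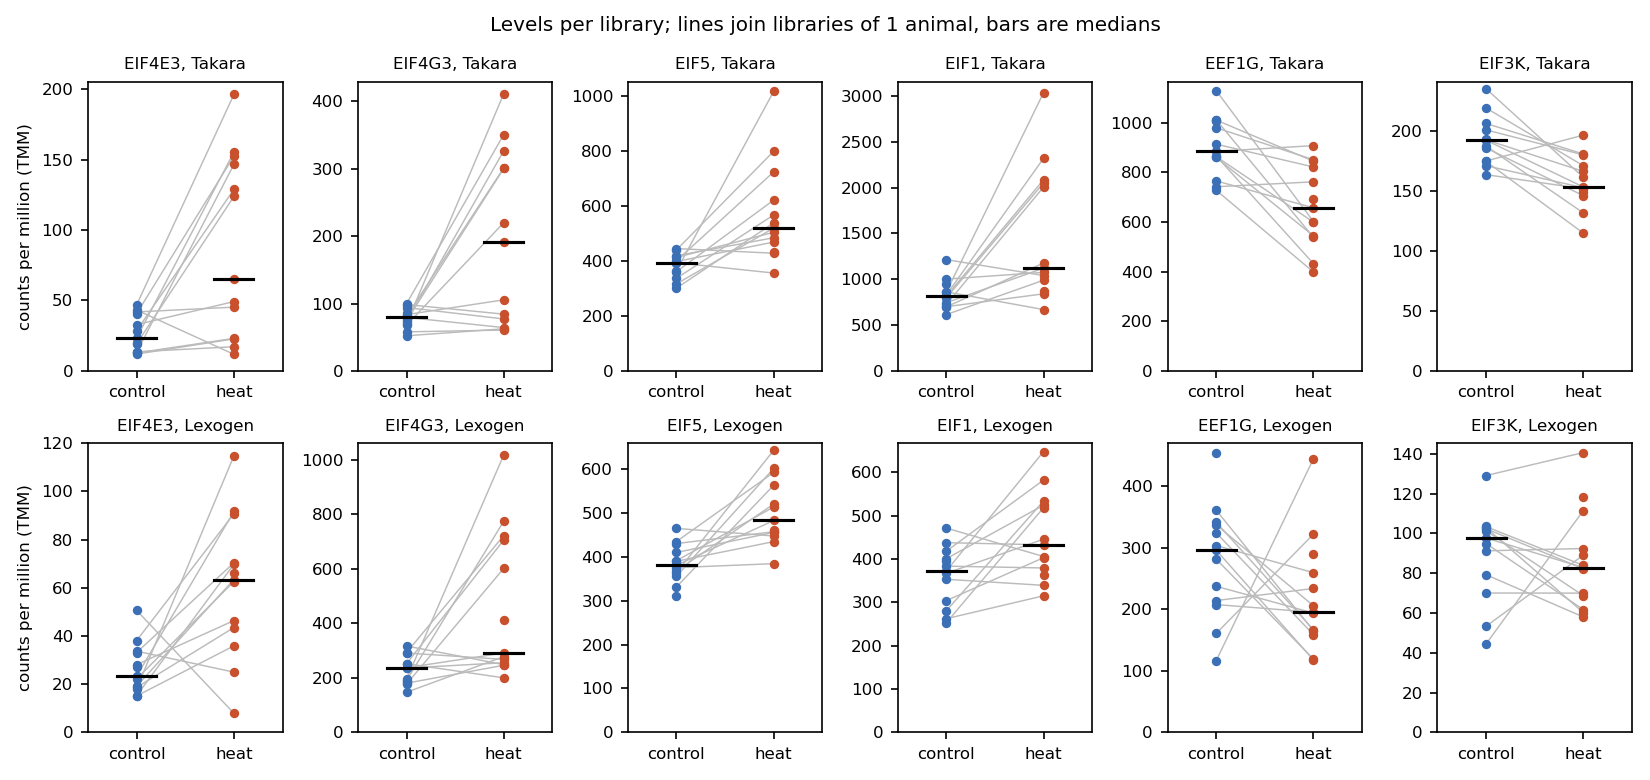
Level of 6 translation factors (y axis, CPM) in each control and heat stress library (x axis) of Takara (upper row) and Lexogen (lower row), with grey lines joining the libraries of an animal and bars at the medians. EIF4E3 and EIF4G3 spread upward in heat stress with some libraries left at control level, EIF5 shifts as a group, and EEF1G and EIF3K shift down in Takara.

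The subunits of eIF3, the scaffold of the small subunit, leaned downward by small amounts, as did the translation factors as a whole. Of the 13 genes tested in Takara, 12 had a negative log2 fold change. Of these 3 fell, beside falls in 10.5% of all tested genes. The Takara median was -0.16, beside -0.15 for all translation factors. In Lexogen 11 of 13 were negative with 0 called by edgeR or DESeq2 and 2 at an unadjusted p under 0.05. The Lexogen median was -0.20, beside -0.16 for all translation factors. EIF3M had 74.0, 94.3 and 122 CPM in control and 48.7, 77.4 and 102 CPM in heat stress in Takara, with a log2 fold change of -0.35 ± 0.11 (adjusted p = 0.0154), and was lower in 11 of 12 animals. EIF3K, with -0.28 ± 0.08 (adjusted p = 0.0144), had 8 heat stress libraries below every control. EIF3F, with -0.25 ± 0.09 (adjusted p = 0.038), also had 8, and its call was lost with the animal as a block (adjusted p = 0.0819). That fit holds only animals with both times, and the same libraries without the block gave no call either (adjusted p = 0.081). EIF3K and EIF3F were named after their values were seen.

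EIF3D, the subunit that can itself bind the cap, had the highest value of the group at 0.09 ± 0.11, which turned to -0.18 with total counts as library size. EIF3E had 116.5, 176 and 204 CPM in control and 122, 161 and 190 CPM in heat stress, with a log2 fold change of -0.14 ± 0.09 (adjusted p = 0.26) in Takara and -0.27 ± 0.19 (adjusted p = 0.517) in Lexogen. EIF3CL, named for its likeness to EIF3C, had -0.16 ± 0.10 and may share reads with near-identical copies.

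The elongation factors had the lowest median of the 10 role groups in Takara, at -0.31 over 6 tested genes, and all 6 were negative. The 3 genes of the eEF1B exchange complex fell, beside falls in 10.5% of all tested genes. EEF1D, its delta subunit, had 297, 367 and 561 CPM in control and 174, 286 and 384 CPM in heat stress, with a log2 fold change of -0.48 ± 0.14 (adjusted p = 0.0112). EEF1G, the gamma subunit, had 728, 885 and 1130 CPM in control and 399, 657 and 908 CPM in heat stress, with -0.44 ± 0.12 (adjusted p = 0.00858), and 8 heat stress libraries were below every control. EEF1B2, the catalytic beta subunit, had -0.32 ± 0.11 (adjusted p = 0.0247). EEF1G and EEF1B2 were named after their values were seen. In Lexogen the 3 genes had -0.21, -0.34 and -0.39, with standard errors of 0.20, 0.20 and 0.17, and were not called.

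EEF1A1, the aminoacyl-tRNA carrier, had 117.3, 189 and 295 CPM in control and 106, 161 and 267 CPM in heat stress in Takara, with a log2 fold change of -0.16 ± 0.17 (adjusted p = 0.498). EEF2, the translocase, had 198, 315.9 and 450 CPM in control and 120, 268 and 352 CPM in heat stress, with -0.30 ± 0.15 (adjusted p = 0.127) in Takara and -0.10 ± 0.12 (adjusted p = 0.749) in Lexogen. EEF1E1, a subunit of the multi-tRNA synthetase complex, had -0.04 ± 0.15. EEF2K, the kinase that inhibits eEF2, had 35.4, 41.9 and 64.4 CPM in control and 22.7, 37.8 and 46.5 CPM in heat stress, with -0.32 ± 0.12 (adjusted p = 0.0523), and passed the threshold with sense-strand counts (adjusted p = 0.0462). EEF1AKMT1, a methyltransferase that acts on eEF1A, had -0.10 ± 0.14.

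The 4E-binding proteins, which hold eIF4E away from eIF4G when mTOR is inactive, were at low levels and not called. EIF4EBP1 had 4.06, 9.69 and 19.2 CPM in control and 2.26, 8.36 and 18.3 CPM in heat stress in Takara, with a log2 fold change of -0.11 ± 0.23 (adjusted p = 0.753). EIF4EBP2 had a control median of 0.567 CPM and was not tested. EIF4EBP3 had -0.09 ± 0.12 and EIF4ENIF1, a nuclear shuttle of eIF4E, had -0.20 ± 0.13. In Lexogen EIF4EBP3 had the opposite sign, at 0.76 ± 0.38 (adjusted p = 0.308 by edgeR). The other translation factors that were too low to test in either kit were EEF2KMT, EEF1A2, EIF4E1B and EIF1AY, and EEF1AKMT3 was tested in Takara only.

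Of the 16 genes listed for mTOR and MAPK control of eIF4F, 14 were tested in Takara, with 2 higher and 3 lower. In Lexogen 13 were tested, with 1 higher and 0 lower. The shares of all tested genes were 18.4% higher and 10.5% lower in Takara, and 5.09% and 0.459% in Lexogen. MKNK1, a kinase that phosphorylates eIF4E on the eIF4G scaffold, had 31.2, 58.4 and 92.8 CPM in control and 60.8, 116.6 and 267 CPM in heat stress, and rose by 1.20 ± 0.24 (adjusted p = 0.000839) in Takara, with 0.61 ± 0.26 (adjusted p = 0.21) in Lexogen. RPTOR, the mTORC1 subunit, had -0.70 ± 0.27 (adjusted p = 0.0531), and -0.86 (adjusted p = 0.0187) with the animal as a block.

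Of 12 genes of messenger ends and ribosome recycling, 2 were higher and 3 lower in Takara, and 0 were higher and 1 lower in Lexogen. For all tested genes the shares higher and lower were 18.4% and 10.5% in Takara, and 5.09% and 0.459% in Lexogen. PABPC4, a poly(A)-binding protein, fell by 0.66 on the log2 scale (SE 0.13, adjusted p = 0.000706), with 9 of 13 heat stress libraries below every control, and PELO, a ribosome rescue factor, rose by 0.61 ± 0.15 (adjusted p = 0.00309). Their Lexogen values were -0.19 ± 0.29 and 0.34 ± 0.43. Of the 8 tested genes that make hypusine or diphthamide, DPH5 alone was called, at 1.23 ± 0.29 (adjusted p = 0.00301) in Takara and 1.07 ± 0.31 (adjusted p = 0.0334) in Lexogen, and DNAJC24 was lowest in Takara at -0.23 ± 0.10. The Lexogen call of DPH5 was lost with the animal as a block (log2 fold change 0.51, adjusted p = 0.477), with total counts as library size (adjusted p = 0.0547) and without the heat stress library of animal 15 (adjusted p = 0.0592).

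Of 6 other elongation genes, 2 were higher in Takara, beside 18.4% of all tested genes. GTPBP2, a GTPase of stalled ribosome rescue, had 3.08, 5.11 and 14.0 CPM in control and 2.85, 5.64 and 196 CPM in heat stress, so that its log2 fold change of 1.96 ± 0.59 (adjusted p = 0.0147) rested on 3 libraries above the controls, and it was 0.42 (adjusted p = 0.374) with the animal as a block. EEFSEC, the selenocysteine elongation factor, had -0.37 ± 0.15 (adjusted p = 0.0588).

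The neutrophil markers were high in many of the heat stress libraries that lay beyond the controls for translation factors. In Takara 8 of 13 heat stress libraries had a sum of neutrophil markers above every control library. All 8 heat stress libraries above the controls for EIF4E3 were among them, as were 7 of 8 for EIF4G3, 7 of 7 for EIF4G2, 6 of 7 for EIF2AK3, 5 of 5 for EIF1 and 4 of 4 for EIF4A2. For the genes that fell, 7 of 8 heat stress libraries below the controls for EEF1G and for EIF3F were among them, and 6 of 6 for EIF3M and for EEF1B2. The counts were 4 of 4 for EIF4B, 6 of 7 for EEF1D, 5 of 6 for EIF1AX and 6 of 8 for EIF3K. For EIF5 the count was 6 of 10. In Lexogen, where 8 of 13 heat stress libraries also exceeded the controls for the markers, the counts were 7 of 8 for EIF4E3, 6 of 6 for EIF4G3 and 5 of 7 for EIF5. The part of neutrophil content in these changes was not tested.

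**Figure D4:**
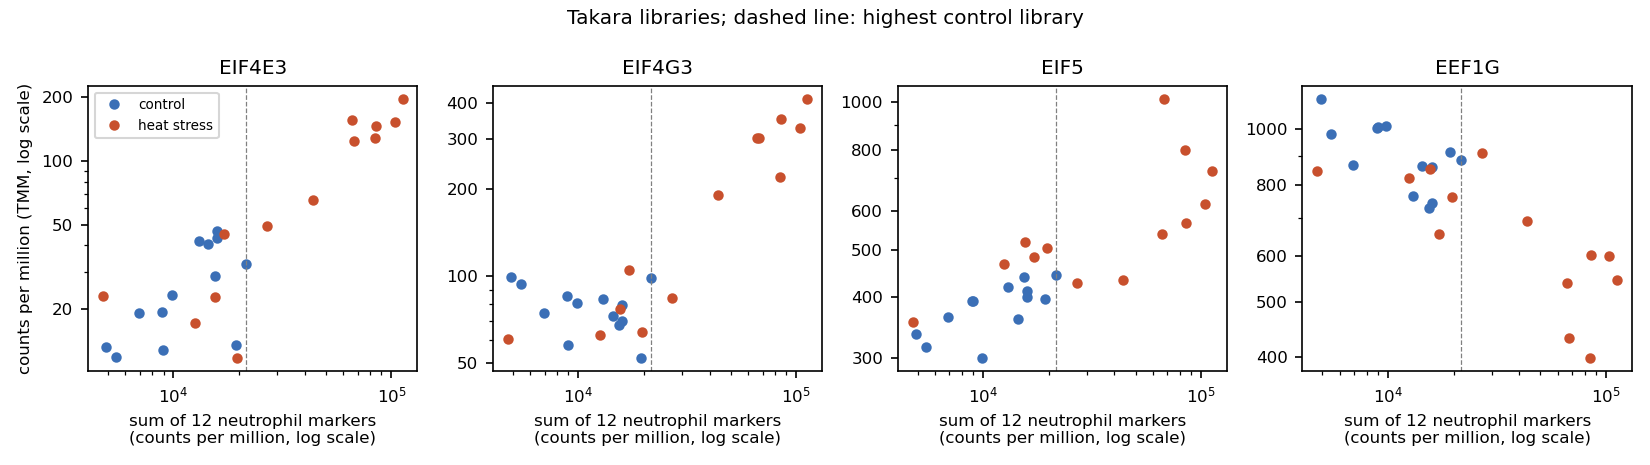
Level of 4 translation factors (y axis, CPM, log scale) against the sum of 12 neutrophil markers (x axis, CPM, log scale) in each Takara library, with the highest control sum of 21551 as a dashed line. EIF4E3 and EIF4G3 are high in libraries right of the line, EEF1G is low there, and EIF5 is also above its controls in some heat stress libraries left of the line.

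The changes were also compared between the 2 runs of sample numbers, of 8 and 7 animals, whose meaning is not given in the sources used here. Within run 1 alone 6 translation factors were higher and 2 lower in Takara. The 2 lower were EIF2B5 (log2 fold change -0.50, adjusted p = 0.0164 by edgeR) and EIF4E2 (-0.43, adjusted p = 0.0453), neither called over both runs. In run 2 they had 0.25 and 0.03. None of the genes that fell over both runs was called lower in either run alone. Within run 2 alone 1 translation factor was higher (EIF4E3) and 0 lower, with 13 at an unadjusted p under 0.05. The log2 fold change in Takara was 1.40 in run 1 and 2.14 in run 2 for EIF4E3, 1.46 and 1.18 for EIF4G3, and 0.60 and 0.56 for EIF5. In Lexogen EIF4E3 had 1.25 and 1.21, EIF4G3 1.24 and 0.83, and EIF5 0.48 and 0.28. For EIF2AK3 in Lexogen the values were 1.22 and 0.08. The difference between runs was tested in edgeR as a time by run term, added after the data were seen, and 1 of 60 translation factors passed in Takara (EIF3L), beside 2.58% of all genes, and 0 of 59 in Lexogen (6 at an unadjusted p under 0.05), beside 0.018%.

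No translation factor was called for a difference between kits in its response to heat stress. The kit by time term, tested with edgeR in the 24 RNA samples that had both kits and blocked by RNA sample, was called for 0 of 61 translation factors, with 4 at an unadjusted p under 0.05, and for 0.0% of all genes. Those 4 were EEF1D, EEF2, EIF2AK1 and EIF4H. Of 59 translation factors tested in both kits, 47 had the same sign of fold change, and 3 (5.08%) were called higher in both, beside 5.06% of all genes. These counts come from the same blood samples and are no independent replication.

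Levels, in contrast, often differed between kits within an RNA sample. In the 24 RNA samples 23 of 61 translation factors (37.7%) were higher in Lexogen and 29 (47.5%) lower, beside 26.3% and 45.3% of all genes. EIF6 had a control median of 267 CPM in Takara and 13.4 CPM in Lexogen, a log2 difference of -4.30 ± 0.24. EIF4A2 had 29.4 and 139 CPM, a difference of 2.55 ± 0.13, and EIF4G3 had 79.4 and 236 CPM, a difference of 1.79 ± 0.08. EIF5 had medians of 393 and 380.4 CPM, whereas within RNA samples it was higher in Lexogen, by 0.25 ± 0.06 (adjusted p = 0.000555 by edgeR). The medians are of control libraries scaled within a kit, while the difference comes from a joint fit of both kits and times. Ratios between paralogs therefore carry the kit as well, and only changes between times within a kit are set side by side above.

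Overlap with neighbours can affect some counts, in a direction that was not tested. STAR places reads that fall on exons of several genes in an ambiguous total, which was left out. The shared bases given here are of whole gene spans, introns included. 25 translation factors overlap another annotated gene in ARS-UCD2.0, and 10 of them a protein-coding one. EIF4G3 shares 30111 bases with a long noncoding RNA and EIF4E3 8315 bases with another, and EIF5 shares 673 bases with a protein-coding gene. EEF1G lies wholly within the annotated span of the protein-coding gene CSKMT, with 9595 shared bases, and EIF4EBP3 within that of SRA1, with 2789. With counts of the sense strand alone the Takara log2 fold changes were 1.33 for EIF4G3, 1.71 for EIF4E3, 0.59 for EIF5 and -0.44 for EEF1G.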

How the data were processed

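Whole blood of 15 calves was profiled in 54 libraries, 27 per kit. The deposited values are raw counts per gene, without normalization. To make them, the authors trimmed the reads (Trimmomatic 0.39), aligned these to the ARS-UCD2.0 build (STAR 2.7.10b) and took STAR's gene counts. These leave out multimapped reads and reads ambiguous between genes. The unstranded column was used, and the column the authors analysed is not given in the sources used here. The 4 rows of totals were left out. Reads carry no molecular identifiers. The standard errors hold counting error, the spread of animals and that of library preparation together. Depth is given with the results.

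Times were compared with edgeR 4.0.16 (R 4.3.3): filterByExpr, TMM, and a quasi-likelihood test of time alone, as in the study's model, adjusted by Benjamini-Hochberg over all genes. The kit by time term had the RNA sample as a block. Controls and heat stress come from the same calves. The correlation of their deviations from the group means was above 0.1 in 10 of 12 animals in Takara (median 0.231) and 2 of 12 in Lexogen (median 0.0291); the animal as a block was an alternative. DESeq2 1.42.0, other scalings, filters, runs, sense counts and both times for animal 20 were the others. The test was tested on simulated data.

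The translation factors and gene lists were chosen with earlier results of these data known. Genes named were those called in both kits, the highest and lowest of each role group or list in Takara, and a fixed set of central factors; others are marked. Lists were described by counts and medians, with no test of the list. All 65 translation factors matched a RefSeq entry of ARS-UCD2.0.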

Additional observations from a re-analysis of the deposited data

Results flagged for a closer look

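EIF3L, a subunit of eIF3, was singled out because its response to heat stress in Takara differed between the 2 runs of sample numbers. The time by run term, run 2 minus run 1, was 0.62 on the log2 scale (SE 0.16, adjusted p = 0.0381 by edgeR's quasi-likelihood test). In run 1 the control libraries had a lowest, median and highest level of 160, 171 and 175 CPM (n = 7) and the heat stress libraries 117.8, 127 and 167 CPM (n = 7). In run 2 the control libraries had 102, 136 and 154 CPM (n = 6) and the heat stress libraries 149, 162 and 183 CPM (n = 6). In Lexogen the same term was -0.02 (SE 0.43, adjusted p = 0.999). The term was added after the data were seen, and what the runs of sample numbers stand for is not given in the sources used here.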

How the results depend on the processing

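With total counts as library size, the median of all genes moved by -0.22 on the log2 scale in Takara, the share of calls that were higher went from 63.8% to 37.4% over all genes, and 13 translation factors were called lower, while their median stayed 0.07 below that of all genes (0.09 with TMM). The Takara medians became -0.30 for eIF2 kinases, -0.36 for eIF3 and 0.011 for eIF4. The 15 translation factors called in Takara were all called in the same direction with that scaling, and 13 of them with the replicate block, which called 0 in total and 0 higher in Lexogen. With animal 20 as control, 0 were called in Takara (0 higher, 0 lower) and 0 in Lexogen (0 higher). Run 1 alone gave 8 called in Takara, 2 of them lower (EIF2B5 and EIF4E2, not called over both runs). Run 2 alone gave 1 called, with 1 higher and 0 lower, and 0 in Lexogen (0 higher). With no filter on low counts, 1 was called lower in Lexogen, EIF1AY, whose counts come from 1 library. The causes were not tested. Over the alternatives run, no called value of a named gene changed sign, and the adjusted p (edgeR or DESeq2) ranged from 5.3e-05 to 0.072 for EIF4E3, from 3.6e-05 to 0.084 for EIF4G3 and from 0.00014 to 0.1 for EIF5 in Takara, and from 0.00087 to 0.37, from 0.0011 to 0.37 and from 0.0011 to 0.65 in Lexogen. Beyond those named in the results, the block changed no call of a translation factor. For genes named in Takara, 20 calls of genes were lost within run 2, 12 within run 1 and 25 with animal 20 as control. The sample numbers per group, 13, limit small changes more in Lexogen, where the median standard error over all genes was 0.42, than in Takara, where it was 0.18.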
